A study of Homo sapiens with 6 samples.

Results

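The genes described here are 10 components of the epithelial adherens junction and of a related adhesion system, chosen by their symbols from a table of 18678 genes. They are the classical cadherins CDH1, CDH2 and CDH3, the catenins CTNNB1, CTNNA1 and CTNND1, the nectins NECTIN1 and NECTIN2, the nectin adaptor AFDN, and the adhesion molecule EPCAM. The table lists NECTIN1 as PVRL1, NECTIN2 as PVRL2 and AFDN as MLLT4. They were measured by stranded mRNA sequencing in Cal27-shGRK2 cells, which carry a short hairpin RNA against the G protein-coupled receptor kinase GRK2, and in Cal27 cells, an established tongue squamous carcinoma line. Both groups were grown in medium with 10% fetal bovine serum and harvested at 70% confluence. A control vector in Cal27 cells, the number of hairpins and the number of clones are not stated in the labels. The labels name 3 libraries in each group, but every one of the 18678 genes had the same value in Cal27-shGRK2 replicates 0 and 1, which were counted as 1 library, so 2 Cal27-shGRK2 libraries were compared with 3 Cal27 libraries. Separate cultures are not mentioned in the labels, and the p-values then reflect only how far these libraries spread, which may be technical.

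Adherens junctions hold neighbouring epithelial cells together. Cadherins bind their like on the next cell through their outer part, while their cytoplasmic tail binds p120-catenin (CTNND1) and beta-catenin (CTNNB1), and beta-catenin is linked to actin through alpha-catenin (CTNNA1). Nectins form a parallel set of contacts that afadin (AFDN) couples to actin, and EPCAM is a cell adhesion molecule of simple epithelia and many carcinomas. A fall of E-cadherin (CDH1) with a rise of N-cadherin (CDH2) is a commonly used sign of epithelial-mesenchymal transition in carcinoma cells, and P-cadherin (CDH3) is the cadherin of the basal layer in stratified epithelia.

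GRK2 (listed as ADRBK1), the target of the hairpin, had 17.3 and 16.6 FPKM in Cal27-shGRK2 cells, against 55.3, 59.4 and 55.8 FPKM in Cal27 cells. FPKM is the number of fragments scaled by transcript length and by mapped fragments. Its log2 fold change was -1.69 ± 0.06 (SE), the exact two-sided permutation p was 0.1, and 0.1 is the smallest p that 10 splits of 5 libraries allow. The FPKM of all genes summed to 590163 and 615468 in Cal27-shGRK2 libraries and to 613330, 644831 and 622495 in Cal27 libraries, and the sequencing depth is unknown. All 9 squamous epithelial markers were in the table and fell in Cal27-shGRK2 cells, with a summed level of 1216 to 1262 FPKM, against 3198 to 3586 FPKM in Cal27 cells, although the call of KRT6A was lost without any 1 of the Cal27 libraries (adjusted p = 0.081, 0.076 and 0.083). Of these, KRT14, DSG3 and DSC3 lay under 1 FPKM in both Cal27-shGRK2 libraries. They reached a mean of 1 FPKM only through the Cal27 libraries. Of the markers of other cell types, 3 of 7 fibroblast, 2 of 7 endothelial and blood and 2 of 6 neural and melanocyte genes were in the table. Their sums were 3.78 to 3.85, 4.25 to 4.83 and 24.7 to 24.8 FPKM in Cal27-shGRK2 cells, and 4.196 to 4.41, 1.47 to 2.24 and 14.95 to 17.4 FPKM in Cal27 cells. The endothelial and blood sum was that of CD14 and CD68 alone. CD68 averaged 3.91 FPKM in Cal27-shGRK2 cells and 1.01 FPKM in Cal27 cells, while CD14 averaged 0.629 and 0.883 FPKM, with overlap. TUBB3, with means of 24.1 and 15.4 FPKM, made up most of the neural and melanocyte sum. Of the markers of other cell types that were in the table, none stood at 0. Those above 1 FPKM on average were COL1A1, the macrophage marker CD68 and the neuronal tubulin TUBB3. The part of these marker shifts in the results below was not tested, and in bulk RNA fewer cells of a type and less RNA per cell cannot be told apart.

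The adhesion genes moved in both directions, and most changes were modest. In Cal27-shGRK2 cells 6 of the 10 were higher (CDH1, EPCAM, NECTIN2, AFDN, CDH2 and CTNNA1), 3 were lower (NECTIN1, CDH3 and CTNND1), and CTNNB1 did not pass the test. The test was limma on log2(FPKM + 1) across the 13377 genes that averaged 1 FPKM or more, at a Benjamini-Hochberg adjusted p of 0.05, and all 10 genes passed that filter. Of all genes tested, 15.0% were called higher, 14.6% lower and 29.6% in either direction. The split of 2008 higher and 1949 lower became 2850 higher and 1512 lower when FPKM was scaled to TPM, under which the 10 genes kept their direction except CTNNB1. Among genes averaging 5 FPKM or more, 33.6% were called. For 9 of the 10 genes the ranges of the groups were separate, as they were for 53.3% of all genes tested. The median log2 fold change of the 10 was 0.27, and that of all genes tested was -0.005.

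**Figure D1:**
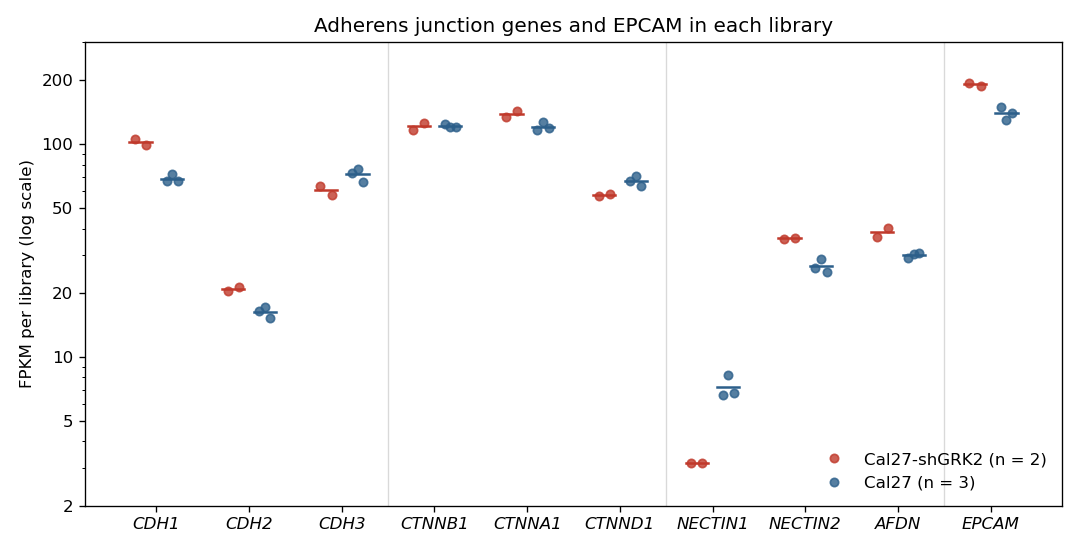
FPKM of the 10 genes (log axis) in each library, with Cal27-shGRK2 points left of Cal27 points, short lines at the group means, and thin vertical lines between cadherins, catenins, nectins with afadin, and EPCAM. The groups stand apart in every gene except CTNNB1, and the widest gap is that of NECTIN1, at 3.18 FPKM in both Cal27-shGRK2 libraries and 6.64 to 8.21 FPKM in Cal27.

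Because FPKM is per length, the levels of the genes can be ordered within a group. EPCAM had the highest level of the 10 in both groups, and NECTIN1 the lowest. In Cal27-shGRK2 cells EPCAM was followed by CTNNA1, CTNNB1 and CDH1, whose ranges did not overlap, and then by CDH3 and CTNND1, whose ranges did. In Cal27 cells CTNNB1 and CTNNA1 overlapped each other, as did CDH3, CDH1 and CTNND1, which all lay between 63.6 and 76.1 FPKM. CDH1 therefore stood above CDH3 and CTNND1 in Cal27-shGRK2 cells but within their range in Cal27 cells. In both groups AFDN, NECTIN2, CDH2 and NECTIN1 followed in that order with no overlap between neighbours.

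The mRNA of E-cadherin rose, that of N-cadherin rose by less, and that of P-cadherin fell. CDH1 (chromosome 16 from 68737225 to 68835548, plus strand, hg38) had 105.5 and 99.2 FPKM in Cal27-shGRK2 cells, against 66.8, 72.2 and 66.9 FPKM in Cal27 cells. The lowest Cal27-shGRK2 library lay well above the highest Cal27 library. The mean was 1.49-fold higher, with a log2 fold change of 0.57 ± 0.06 (SE, n = 2 and 3, limma adjusted p = 5.6e-06). An antisense gene inside the locus, AC099314.1, had a mean of 1.26 FPKM in Cal27-shGRK2 cells and 0.494 FPKM in Cal27 cells, and whether the authors' quantification used strand is unknown.

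CDH2 (chromosome 18 from 27950966 to 28177446, minus strand) had 20.4 and 21.2 FPKM in Cal27-shGRK2 cells and 16.4, 17.2 and 15.3 FPKM in Cal27 cells. The groups did not overlap, and the mean was 1.28-fold higher (log2 fold change 0.33 ± 0.07, SE, limma adjusted p = 0.0022). CDH2 thus rose together with CDH1, and CDH1 exceeded CDH2 in every library, by 5.17 and 4.69 times in Cal27-shGRK2 cells and by 4.08, 4.2 and 4.38 times in Cal27 cells.

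CDH3 lies directly upstream of CDH1 on the same strand of chromosome 16 (68636189 to 68722616), with 14.6 kb between the annotated genes. Its FPKM was 63.7 and 57.7 in Cal27-shGRK2 cells and 73.4, 76.1 and 66.6 in Cal27 cells. The groups came close to each other without overlapping, and the log2 fold change was -0.24 ± 0.07 (SE, limma adjusted p = 0.018). That call was lost without Cal27-shGRK2 replicate 2 (adjusted p = 0.21), after scaling FPKM to TPM, that is to the same sum in every library (0.075) and in limma without trend or robust fitting (0.074). The 2 neighbouring genes therefore changed in opposite directions, and their ratio, CDH1 over CDH3, was 1.65 and 1.72 in Cal27-shGRK2 cells, against 0.911, 0.949 and 1.0 in Cal27 cells.

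**Figure D2:**
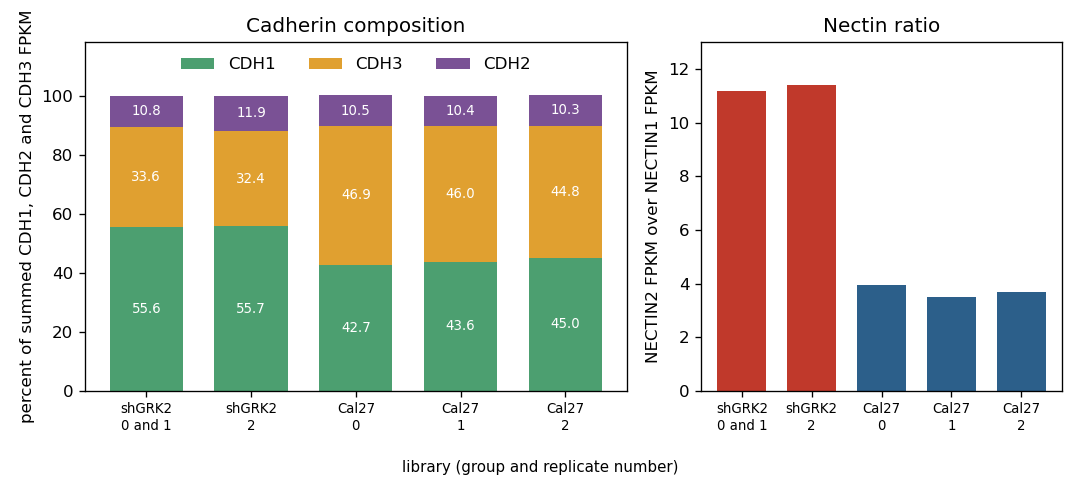
Left, the percentage that CDH1, CDH3 and CDH2 contributed to the summed FPKM of the 3 cadherins in each library, and right, NECTIN2 FPKM divided by NECTIN1 FPKM in each library, with Cal27-shGRK2 libraries left of Cal27 libraries. CDH1 made up 55.6% and 55.7% of the sum in Cal27-shGRK2 cells and 42.7% to 45.0% in Cal27 cells, and the nectin ratio was 11.2 and 11.4 against 3.50 to 3.94.

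Taking the 3 cadherins as a sum, 189.6 and 178.0 FPKM were present in Cal27-shGRK2 cells, against 156.6, 165.4 and 148.7 FPKM in Cal27 cells. CDH3 supplied 33.6% and 32.4% of that sum in Cal27-shGRK2 cells and 46.9%, 46.0% and 44.8% in Cal27 cells. CDH2 supplied 10.8% and 11.9% in Cal27-shGRK2 cells and 10.5%, 10.4% and 10.3% in Cal27 cells. The share of CDH2 thus differed little between groups, and most of the shift lay between CDH1 and CDH3. These shares are a description of 5 libraries and were not tested.

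Among 16 further cadherins, 4 were in the table and 3 were tested, of which 1 rose and 0 fell. This count and those of the lists below stand beside 29.6% of all genes called in either direction, and no list was tested as a set. CDH5, the VE-cadherin of endothelial cells, had 7.01 and 6.80 FPKM in Cal27-shGRK2 cells and 3.57, 3.97 and 3.50 FPKM in Cal27 cells. Its log2 fold change was 0.76 ± 0.09 (SE, limma adjusted p = 7.9e-06), and it stayed far below CDH1 in every library. The listed endothelial markers PECAM1, VWF and KDR were not in the table as received, so they were not analysed here. CDH11, a mesenchymal cadherin, lay under the filter with 0.947 and 1.75 FPKM in Cal27-shGRK2 cells and 0.332, 0.407 and 0.382 FPKM in Cal27 cells, and was not fitted with limma. The authors' deposited table marks CDH11 as significant (log2 fold change 1.88, q = 6.1e-04). The GPI-anchored CDH13 (log2 fold change -0.00 ± 0.09, SE) and CDH24 (-0.01 ± 0.08) did not pass.

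The catenins changed little and not in 1 direction, as CTNNA1 rose, CTNND1 fell and CTNNB1 did not pass. CTNNB1 (chromosome 3 from 41194741 to 41260096, plus strand) had 116.5 and 125.4 FPKM in Cal27-shGRK2 cells, against 123.6, 119.7 and 120.5 FPKM in Cal27 cells. The groups overlapped, and the log2 fold change was -0.005 with a 95% confidence interval from -0.13 to 0.12 (limma adjusted p = 0.96). That interval lies below the lower bound of CDH1, 0.43 (interval 0.43 to 0.71), though the 2 genes were not tested against each other. ULK4, which overlaps CTNNB1 on the opposite strand, was low, at 2.71 FPKM in Cal27-shGRK2 cells and 3.01 FPKM in Cal27 cells. The locus deposited for CTNNB1 runs from 41194837 to 41962430, far beyond the end of the annotated gene.

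CTNNA1 (chromosome 5 from 138610967 to 138935034, plus strand), the link to actin, had 134.0 and 142.8 FPKM in Cal27-shGRK2 cells and 116.1, 126.7 and 119.2 FPKM in Cal27 cells. It was the weakest of the 6 rises, with a log2 fold change of 0.20 ± 0.06 (SE, limma adjusted p = 0.027). Leaving out Cal27 replicate 0 or 2 ended the call (adjusted p = 0.098 and 0.087), as did leaving out Cal27-shGRK2 replicates 0 and 1, counted as 1 library (0.054), or replicate 2 (0.21), and fitting limma without trend (0.081).

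CTNND1 (chromosome 11 from 57753243 to 57819546, plus strand), which binds the juxtamembrane part of cadherin tails and is known to slow their uptake from the surface, had 56.9 and 58.4 FPKM in Cal27-shGRK2 cells and 66.8, 70.5 and 63.6 FPKM in Cal27 cells. It fell without overlap (log2 fold change -0.21 ± 0.06, SE, limma adjusted p = 0.020). The call was lost without either Cal27-shGRK2 library (adjusted p = 0.14 and 0.078) and without trend in limma (0.064). The annotation holds the readthrough gene TMX2-CTNND1 on the same strand, not analysed here, and the split of reads between them is uncertain.

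Relative to the summed cadherin mRNA, CTNND1 mRNA was lower in both Cal27-shGRK2 libraries. Protein was not measured in these libraries, so the ratios below do not give amounts at the junction. The ratio of CTNND1 to the summed cadherin FPKM was 0.300 and 0.328 in Cal27-shGRK2 cells, against 0.427, 0.426 and 0.428 in Cal27 cells. For CTNNB1 the ratio was 0.614 and 0.704 in Cal27-shGRK2 cells and 0.789, 0.724 and 0.810 in Cal27 cells, so its groups stood apart only narrowly. For CTNNA1 the ratios were 0.707 and 0.802 in Cal27-shGRK2 cells and 0.741, 0.766 and 0.801 in Cal27 cells, and these overlapped.

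Of 9 other catenins and armadillo partners, 6 were tested, of which 0 rose and 2 fell. Plakoglobin (JUP), a close relative of beta-catenin found in both adherens junctions and desmosomes, had 99.3 and 100.7 FPKM in Cal27-shGRK2 cells and 113.1, 130.0 and 113.6 FPKM in Cal27 cells. Its log2 fold change was -0.25 ± 0.07 (SE, limma adjusted p = 0.014), lost without either Cal27-shGRK2 library (adjusted p = 0.10 and 0.078) and without trend in limma (0.065). ZBTB33, the transcription factor Kaiso that binds p120-catenin, had a log2 fold change of -0.22 ± 0.08 at the edge of the threshold (limma adjusted p = 0.048), a call lost in 7 of 15 alternatives.

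NECTIN1 and NECTIN2 changed in opposite directions, and NECTIN1 had the largest change of the 10 genes. NECTIN1 (chromosome 11 from 119623408 to 119729084, minus strand), also an entry receptor of herpes simplex virus, had 3.18 FPKM in both Cal27-shGRK2 libraries, against 6.64, 8.21 and 6.76 FPKM in Cal27 cells. The mean was 2.27-fold lower, with a log2 fold change of -0.97 ± 0.10 (SE, limma adjusted p = 1.6e-06), a change larger in size than that of 96.8% of the genes tested. NECTIN2 (chromosome 19 from 44846175 to 44889228, plus strand), also a ligand of lymphocyte receptors, had 35.7 and 36.3 FPKM in Cal27-shGRK2 cells and 26.2, 28.7 and 24.98 FPKM in Cal27 cells. The groups did not overlap, and NECTIN2 was 1.35-fold higher (log2 fold change 0.42 ± 0.07, SE, limma adjusted p = 2.6e-04).

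As NECTIN2 was the more abundant in every library, the sum of both nectins was still higher in Cal27-shGRK2 cells, at 38.9 and 39.5 FPKM, against 32.8, 36.9 and 31.7 FPKM in Cal27 cells. The ratio of NECTIN2 to NECTIN1 was 11.2 and 11.4 in Cal27-shGRK2 cells and 3.94, 3.50 and 3.70 in Cal27 cells. AFDN (chromosome 6 from 167826922 to 167972023, plus strand), which binds the nectin tail and actin, had 36.4 and 40.4 FPKM in Cal27-shGRK2 cells and 28.98, 30.6 and 30.7 FPKM in Cal27 cells. It rose 1.28-fold (log2 fold change 0.34 ± 0.07, SE, limma adjusted p = 0.0012). The ratio of AFDN to the sum of both nectins was 0.936 and 1.02 in Cal27-shGRK2 cells and 0.883, 0.828 and 0.967 in Cal27 cells, with overlap.

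Of the 10 genes, 5 had an entry among the RefSeq promoters (GRCh38.p14): AFDN, CDH2, NECTIN2, CTNNA1 and CTNNB1. The stretches before the start of AFDN, CDH2 and NECTIN2, members that rose together, are shown to compare them for the E-box CACCTG, the form of that element that repressors of the Snail and ZEB families are known to bind. Each runs 5′ to 3′ from 250 bases upstream and stops before the first GENCODE version 29 exon or at the start, and capitals mark CACCTG or its reverse complement CAGGTG. For CDH2 the stretch precedes a downstream alternative start, and for AFDN it lies within the GENCODE gene.
AFDN at chr6:167827385-167827634, plus strand: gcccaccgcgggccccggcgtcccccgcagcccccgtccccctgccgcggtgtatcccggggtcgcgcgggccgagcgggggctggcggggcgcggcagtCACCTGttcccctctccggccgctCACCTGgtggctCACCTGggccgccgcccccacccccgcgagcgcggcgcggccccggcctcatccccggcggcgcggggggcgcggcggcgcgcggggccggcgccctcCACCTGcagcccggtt
CDH2 at chr18:28036642-28036891, minus strand: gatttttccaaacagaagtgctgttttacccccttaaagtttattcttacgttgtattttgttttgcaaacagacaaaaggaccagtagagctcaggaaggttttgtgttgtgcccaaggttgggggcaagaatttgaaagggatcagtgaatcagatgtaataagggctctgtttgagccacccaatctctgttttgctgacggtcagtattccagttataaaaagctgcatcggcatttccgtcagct
NECTIN2 at chr19:44846047-44846174, plus strand: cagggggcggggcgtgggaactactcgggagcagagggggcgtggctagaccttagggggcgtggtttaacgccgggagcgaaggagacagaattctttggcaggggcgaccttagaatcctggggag

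The AFDN stretch held the E-box 4 times, beginning at positions -150, -126, -114 and -16 relative to the start, whereas the stretches of CDH2 and NECTIN2 held none. The windows of CTNNA1 and CTNNB1 also held none in their 250 bases, and they are not shown because, read from 250 bases upstream, an annotated exon began after 89 bases or fewer in each. Over the full 250 bases before each of 35116 starts, CACCTG or CAGGTG occurred in 17.5%, and 4 or more matches occurred in 43 (0.122%). Neither motif can overlap the other or itself. The G+C content of the shown stretches was 84.8% for AFDN, 42.0% for CDH2 and 64.1% for NECTIN2. These are matches of letters and not sites of binding, and the motif was chosen with the changes of these genes known.

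Of 11 other nectins, nectin-like proteins and their receptors, 4 were tested, of which 1 rose and 0 fell. PVR, the nectin-like poliovirus receptor, had 39.3 and 39.8 FPKM in Cal27-shGRK2 cells and 31.3, 34.1 and 31.4 FPKM in Cal27 cells. It rose as NECTIN2 did (log2 fold change 0.29 ± 0.07, SE, limma adjusted p = 0.0035), and both are known ligands of the lymphocyte receptor CD226. NECTIN3 (listed as PVRL3, 3.98 ± 0.128 FPKM in Cal27-shGRK2 cells and 4.58 ± 0.188 FPKM in Cal27 cells, SD) and NECTIN4 (listed as PVRL4) did not pass.

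EPCAM (chromosome 2 from 47345158 to 47387601, plus strand) had 193.4 and 187.9 FPKM in Cal27-shGRK2 cells, against 148.6, 129.6 and 140.5 FPKM in Cal27 cells. Every Cal27-shGRK2 value lay above every Cal27 value, and the mean was 1.37-fold higher (log2 fold change 0.45 ± 0.07, SE, limma adjusted p = 9.2e-05). EPCAM and CDH1 kept a similar proportion, with EPCAM over CDH1 at 1.83 and 1.89 in Cal27-shGRK2 cells and 2.22, 1.8 and 2.1 in Cal27 cells, and these ratios overlapped.

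Among 13 EPCAM partners and membrane proteases, 12 were tested, of which 6 rose and 2 fell. The 6 include ADAM17, at the edge of the threshold (log2 fold change 0.19, limma adjusted p = 0.047). Its call was lost in most alternatives, such as limma with no filter (adjusted p = 0.057) or after quantile normalization (0.061). The serine protease prostasin, PRSS8, had 118.6 and 112.0 FPKM in Cal27-shGRK2 cells and 61.2, 68.5 and 68.0 FPKM in Cal27 cells (log2 fold change 0.80 ± 0.07, SE, limma adjusted p = 2.5e-07). The aspartyl protease BACE2 (log2 fold change 0.73) and SPINT1 (0.39), an inhibitor of the protease matriptase, also rose. CD9, a tetraspanin known to associate with EPCAM, fell to 106.4 and 104.9 FPKM in Cal27-shGRK2 cells, against 165.5, 161.2 and 159.5 FPKM in Cal27 cells (log2 fold change -0.61 ± 0.06, SE, limma adjusted p = 9.1e-07). The protease TMPRSS4 fell by 1.03 on the scale of log2(FPKM + 1). It had 0.323 and 0.2825 FPKM in Cal27-shGRK2 cells and 1.81, 1.57 and 1.60 FPKM in Cal27 cells. At such low levels that scale understates the change, and the mean FPKM was 5.49-fold lower. TMPRSS4 passed the filter of 1 FPKM only through the Cal27 libraries. The claudin CLDN7, which binds EPCAM, did not pass (log2 fold change -0.19, limma adjusted p = 0.065).

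**Figure D3:**
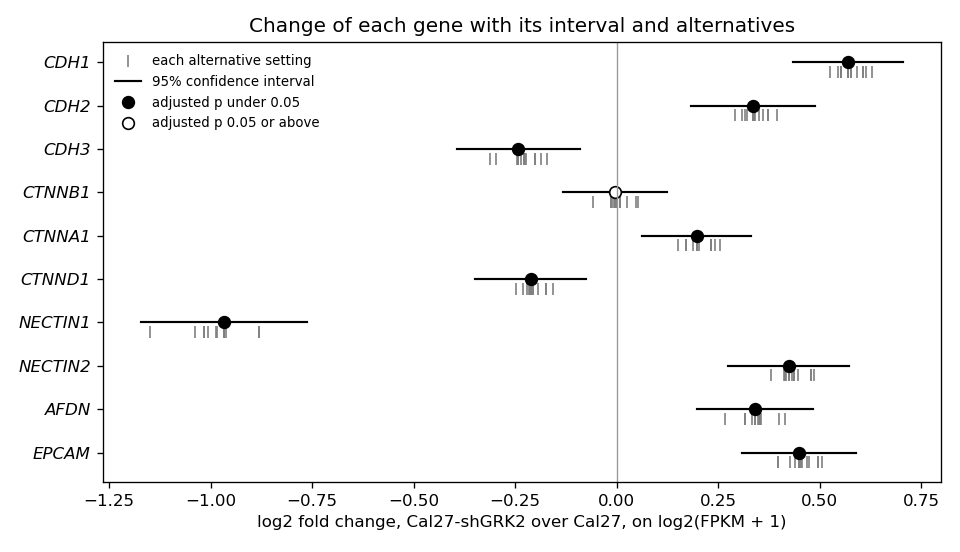
Log2 fold change of each of the 10 genes, Cal27-shGRK2 over Cal27, filled where the adjusted p is under 0.05 and open otherwise, with its 95% confidence interval (line) and the values under 15 alternative settings (ticks below it). The ticks of CTNNB1 fall on both sides of 0, while those of the other 9 genes stay on 1 side, and NECTIN1 stays below -0.88.

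Of 17 actin linkers of adherens junctions tested, 5 rose and 0 fell, against 29.6% of all genes called in either direction, and their median was 0.08 on the log2 scale. LPP, a zyxin relative found at cell contacts, rose by 0.60, the actin-filament protein AFAP1 by 0.59 and the phosphatase PTPN14 by 0.48 on the log2 scale. Vinculin (VCL), which reinforces alpha-catenin under tension, had 66.8 and 70.2 FPKM in Cal27-shGRK2 cells and 64.1, 74.6 and 68.2 FPKM in Cal27 cells, and did not pass (log2 fold change -0.01). Of 16 genes of cadherin trafficking and shedding, 3 rose and 1 fell, beside the same 29.6% of all genes. The receptor phosphatases PTPRM (log2 fold change 0.72), known to associate with cadherins, and PTPRF (0.55), and the kinase FYN (0.66), rose. However, PTPRM averaged only 3.06 FPKM and FYN 1.68 FPKM in Cal27-shGRK2 cells, against 1.49 and 0.692 FPKM in Cal27 cells. FYN thus passed the filter of 1 FPKM only through the Cal27-shGRK2 libraries. PTPN1 fell by 0.20 (limma adjusted p = 0.038), a call lost in 9 of 15 alternatives.

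**Figure D4:**
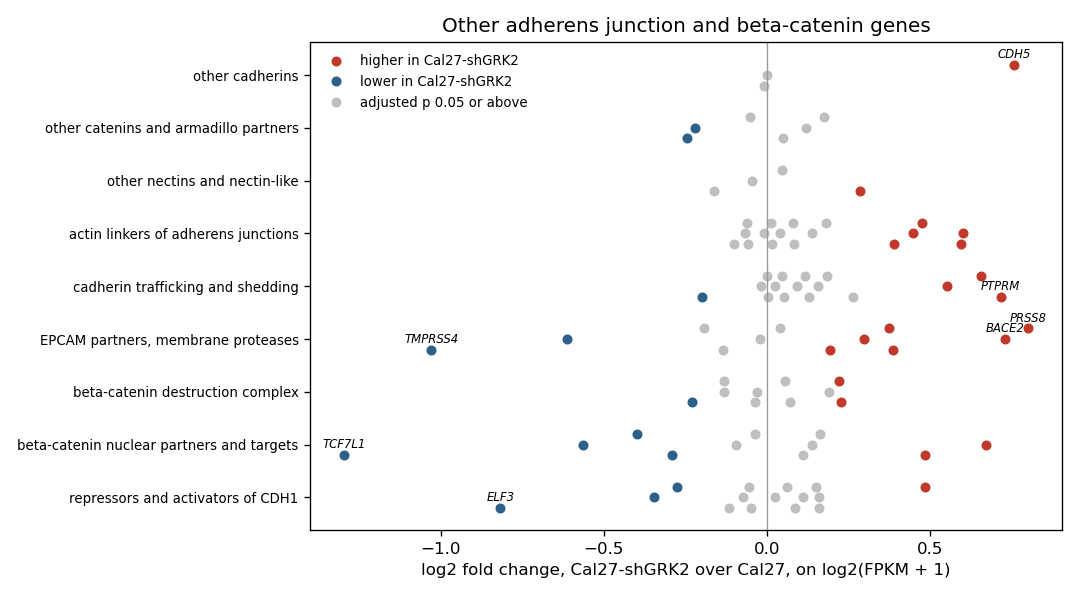
Log2 fold change, Cal27-shGRK2 over Cal27, of the tested genes of 9 lists, 1 point a gene, red for genes called higher, blue for genes called lower and grey for the rest, with names where the change is at least 0.7 in size. Of 94 genes, 21 were called higher, 13 lower and 60 did not pass, beside 29.6% of all genes tested called in either direction. The largest fall on the scale of log2(FPKM + 1) is that of TCF7L1, which passed the filter only through the Cal27 libraries.

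Outside the junction, beta-catenin also acts as a transcriptional co-activator, and its level there is limited by a destruction complex. Of 10 tested genes of that complex, 2 rose (GSK3B and TNKS2, log2 fold changes 0.23 and 0.22) and 1 fell (AXIN1, -0.23), with limma adjusted p of 0.026, 0.037 and 0.033. Each of these calls was lost without either Cal27-shGRK2 library. AXIN2, a widely used target of beta-catenin, lay under the filter, with 0.210 and 0.152 FPKM in Cal27-shGRK2 cells and 0.300, 0.182 and 0.242 FPKM in Cal27 cells. Of 11 tested nuclear partners and targets, 2 rose and 4 fell. TCF7L1 fell to 0.682 and 0.666 FPKM in Cal27-shGRK2 cells, against 2.87, 3.34 and 3.13 FPKM in Cal27 cells (log2 fold change -1.29 ± 0.10, SE, limma adjusted p = 1.3e-07). It passed the filter of 1 FPKM only through the Cal27 libraries. The ubiquitin ligase RNF43 and the Wnt antagonist DKK1 fell by 0.56 and 0.40 on the log2 scale. Cyclin D1 (CCND1) rose to 273.1 and 273.2 FPKM in Cal27-shGRK2 cells, against 165.6, 183.7 and 164.9 FPKM in Cal27 cells (log2 fold change 0.67 ± 0.06, SE, limma adjusted p = 9.9e-07), and TCF7 rose by 0.48. The called genes of this list of partners and targets therefore did not move one way. A further 6 lay under the filter, and are named after their values were seen. TNFRSF19 had 1.94 and 1.82 FPKM in Cal27-shGRK2 cells and 0.180, 0.206 and 0.272 FPKM in Cal27 cells. NKD2 had 0.0575 and 0.0251 FPKM in Cal27-shGRK2 cells and 0.454, 0.324 and 0.1795 FPKM in Cal27 cells. PYGO1 was also higher without overlap, and the groups overlapped for LEF1, NKD1 and ASCL2.

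Of 15 tested repressors and activators of CDH1, 1 rose and 3 fell, beside 29.6% of all genes called in either direction. The repressor TCF3 and the epithelial factor ELF3 fell by 0.35 and 0.82, and GRHL1 rose by 0.48 on the log2 scale. SNAI2 had a log2 fold change of -0.27 (limma adjusted p = 0.018) whose call was lost in 7 of 15 alternatives. ZEB1 lay under the filter, with 0.202 and 0.254 FPKM in Cal27-shGRK2 cells and 0.0370, 0.122 and 0.0960 FPKM in Cal27 cells. The authors' deposited table marks ZEB1 as significant (log2 fold change 1.34, q = 0.018), so the tally above leaves out a repressor that was higher there. ZEB2, named after its values were seen, also lay under the filter. ZEB2 had 0.202 and 0.244 FPKM in Cal27-shGRK2 cells and 0.0586, 0.0608 and 0.122 FPKM in Cal27 cells, without overlap. The other genes of this list under the filter were likewise named after their values were seen. TCF4 had 0.730 and 0.719 FPKM in Cal27-shGRK2 cells and 0.365, 0.182 and 0.482 FPKM in Cal27 cells. GRHL3 was lower, with 0.098 and 0.138 FPKM in Cal27-shGRK2 cells and 0.297, 0.317 and 0.462 FPKM in Cal27 cells. For SNAI1 the groups overlapped. GRHL2 did not pass (log2 fold change -0.05).

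In the authors' deposited table, 4 of the 10 genes were marked as significant, against 15.4% of its 18678 genes. Those 18678 include 5301 genes under the filter of 1 FPKM, which all 10 genes passed, so the shares are not like for like. By that table CDH1 (log2 fold change 0.55, q = 6.1e-04), EPCAM (0.44, q = 6.1e-04), CDH2 (0.34, q = 0.0040) and NECTIN1 (-1.27, q = 6.1e-04) were significant. In the authors' deposited table NECTIN2 (log2 fold change 0.46, q = 0.18), AFDN (0.36, q = 0.12), CTNNA1 (0.20, q = 0.19), CDH3 (-0.23, q = 0.18) and CTNND1 (-0.23, q = 0.35) were not. The direction of each of these 9 genes was the same in that table as in the limma fit. Both draw on shared libraries and are not independent, although their Cal27-shGRK2 data were not identical, as the condition values show. The condition value of Cal27 in that table equalled the mean of its 3 columns, within a relative difference of 0.0001, in 99.9% of genes compared, but that of Cal27-shGRK2 did so in 0.329%. A further Cal27-shGRK2 value, computed as 3 times the authors' condition value minus the 2 distinct columns, was 97.1 FPKM for CDH1, 20.1 for CDH2, 63.0 for CDH3, 186.7 for EPCAM and 2.61 for NECTIN1. For all 9 genes called by limma this computed value lay outside the range of the Cal27 libraries on the same side as the deposited columns. With it as an added library, the same 9 genes were called.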

How the data were processed

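Stranded mRNA libraries of Cal27-shGRK2 and Cal27 cells were sequenced, and the submitters' processing notes name the build hg38 and, among tools, Cuffdiff 2.2.1, TopHat2 2.1.0 and Bowtie2 2.2.6. The role of each tool, the annotation and the strand setting are not given in those sources. The deposited table gives FPKM per library and the authors' value per condition, and, for the authors' comparison, q-values, p-values, a test statistic (an unscaled score) and the log2 fold change, per the file headers. Values of 0.0001 in the deposited FPKM columns were read as 0. Among genes below 0.2 FPKM, no bin 0.02 wide of the log2 ratio between a pair of libraries held over 4.10% of genes, so steps of 1 read could not be seen, and no counting interval is given.

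Identical columns were counted once. Genes averaging 1 FPKM or more were fitted on log2(FPKM + 1), which understates changes of low genes, with limma 3.58.1 (trend, robust, R 4.3.3), two-sided, and p-values were adjusted by Benjamini-Hochberg over every gene tested. The fit was also run on simulated data with independent noise, which cannot show whether the libraries here vary independently. Members, lists and named genes were chosen with earlier results of these data known. Named genes are the 10 members, GRK2, up to 3 called genes per direction of each list with the largest change, 10 chosen genes, and markers of other cell types above the filter, of which 1 gene is not reported here. Coordinates are those of GENCODE version 29, and the deposited loci of CTNNB1, CTNND1, NECTIN1 and NECTIN2 reach beyond them. Alternatives were a pseudocount of 0.1, no filter, a filter of 5 FPKM, 3 scalings, limma without trend, replicate blocks, a computed further library and leaving out each library.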

Additional observations from a re-analysis of the deposited data

How the results depend on the processing

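The calls of CDH1, CDH2, EPCAM, NECTIN1, NECTIN2, AFDN and GRK2 kept their direction and stayed past the threshold in all 15 alternatives, with log2 fold changes of 0.53 to 0.63, 0.29 to 0.40, 0.40 to 0.51, -1.15 to -0.88, 0.38 to 0.48, 0.27 to 0.41 and -1.74 to -1.65. CDH3, CTNNA1 and CTNND1 kept their direction but not always their call, and the cause was not tested. With limma without trend or robust fitting they had -0.24, 0.20 and -0.21, so that 1 gene was called lower. With the second replicate block, which takes the shared library as replicate 1, they had -0.23, 0.17 and -0.21, again with 1 gene lower, and CTNND1 had -0.17 in the first block, which takes it as replicate 0 (adjusted p of CTNND1 = 0.053 in the first and 0.076 in the second block). The labels do not tie the numbers to a shared culture, so the numbers were not taken to pair the samples. The correlation of deviations between equally numbered libraries was 0.0801 or -0.0714 for the shared library and 0.0167 for replicate 2. With 2 Cal27-shGRK2 libraries the deviations of 1 mirror those of the other, so these correlations cannot decide whether samples were paired. Over all genes 3960 were called with the first block and 3481 with the second, against 3957 without a block. Rescaling to a common total (TPM) gave -0.19 for CDH3, 2850 genes higher and 1512 lower over all genes (65.3% higher, against 50.7% of the 2008 and 1949 as deposited), and 32 genes higher in the lists instead of 21. Without each library in turn, CDH3 ranged from -0.31 to -0.17, CTNNA1 from 0.15 to 0.24 and CTNND1 from -0.248 to -0.174. The members called lower then numbered 1 to 3. All genes called numbered 2600 to 4028, those higher 1218 to 2205 and those lower 1088 to 1843, and list genes higher 18 to 26 and lower 7 to 12. The value of CTNNB1, never called, changed sign with quantile normalization (0.026), TPM (0.052), scaling by the median of ratios (0.002) and the second block (0.009), and ranged from -0.057 to 0.048 without each library. Where a library was left out of Cal27-shGRK2, the lone library left was assumed to vary like Cal27. Depth is unknown, and the small number of libraries limits the precision.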
